A study of Rattus norvegicus with 2 samples.

Results

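The enzymes that detoxify superoxide and peroxides and build glutathione in the liver were examined on 2 rat oligonucleotide arrays, 1 hybridised with liver RNA from the high-fat diet and 1 from the low-fat diet. The set holds 10 genes, namely Sod1, Sod2, Cat, Gpx1, Gpx4, Prdx1, Gclc, Gclm, Nqo1 and Hmox1, chosen by name with earlier results of these data known. Every probe set with 1 of these names as its single gene symbol in the platform annotation was taken. This gave 10 probe sets for 9 of the genes, out of 12783 probe sets with a single symbol, for 10411 genes in all. Prdx1, a peroxiredoxin, had no such probe set, since the one annotated to it carries a second symbol, and no value is given for it. Gclc had 2 probe sets and the other 8 genes had 1 each.

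Both RNAs were total RNA from liver of SD rats, whose labels give an age of 4 weeks and a feeding period of 9 weeks, and both diets were built on AIN93G, a purified rodent diet. The high-fat diet differed from the low-fat diet in fat, by an amount not given in the sources used here, as are the sex of the rats and how many animals stand behind each RNA. The question was which of these genes differed in liver between the diets. A single array per diet allows no test, no error from replicates and no p-value, so "higher" and "lower" below describe these arrays alone. In bulk liver RNA, fewer cells of a type and less RNA per cell cannot be told apart.

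Superoxide dismutases turn superoxide into hydrogen peroxide, which catalase, glutathione peroxidases and peroxiredoxins then remove. Glutathione peroxidases draw on reduced glutathione, whose synthesis is limited by glutamate-cysteine ligase, and oxidised glutathione is reduced again with NADPH. When electrophiles or oxidants modify Keap1, the transcription factor Nrf2 (gene Nfe2l2) is spared from degradation and acts with small Maf proteins on antioxidant response elements, DNA sites in genes such as Gclc, Gclm, Nqo1 and Hmox1. Hepatocytes are rich in most of these enzymes, while much of the liver's heme oxygenase 1 lies in Kupffer cells, its resident macrophages, where it breaks down heme from old red cells.

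The core of the antioxidant response element was looked for in the promoters of all members, since Nrf2 acts through this element on some of them. RefSeq promoters of rat assembly GRCr8 were matched by symbol for 9 of the 10 members, in 11 entries, 3 of them for Gpx4. Hmox1 was not matched. In the 250 bases before each start site the motif TGACNNNGC, read on either strand, occurred in 3 members, Sod2, Gclm and Prdx1, and in 11.0% of all 27457 genes with promoters of that length (10.1% of 33469 promoter entries). The windows around these 3 matches are shown 5′ to 3′ on the gene's strand, with the match in capitals as its reverse complement GCNNNGTCA.
Sod2 (chr1:50050170-50050228, minus strand): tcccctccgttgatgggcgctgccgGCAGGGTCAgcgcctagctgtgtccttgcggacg
Gclm (chr2:213031938-213031996, plus strand): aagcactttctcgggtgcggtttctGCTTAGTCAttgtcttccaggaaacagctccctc
Prdx1 (chr5:135383746-135383804, plus strand): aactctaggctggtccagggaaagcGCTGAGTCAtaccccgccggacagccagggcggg
The match ends 27 bases before the start site in Sod2, 164 bases before it in Gclm and 127 bases before it in Prdx1. In Prdx1 it overlaps the AP-1 motif TGANTCA, which 7.0% of all genes hold there and which no other matched member has in this window. These are letter matches and not measured binding sites, and members without one may carry the element elsewhere.

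All 10 probe sets were above the floor on both arrays. The array median, 14 on the high-fat and 15.7 on the low-fat array, served as the detection floor, and the member probe set closest to it was 3.67 times the floor on the high-fat and 3.55 times on the low-fat array. Ratios are given as log2 of the high-fat over the low-fat signal. Their median over the 7864 measured probe sets was -0.117 and was subtracted from each, so that a centred ratio lies above that of the deposited signals by this amount. A probe set counted as measured where its mean log2 signal reached the mean of both floors. Log2 signals of these probe sets correlated with r = 0.978 between the arrays, across probe sets that are not independent replicates. Each member was set beside the 500 measured probe sets nearest to it in mean signal, whose 5th to 95th percentile shows how far ratios of that brightness spread on these arrays.

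No member differed by 2-fold in either direction. Across the 6012 measured genes, 0.848% (51 genes) were higher by that much and 0.865% (52 genes) were lower, or 33 and 79 genes without centring, so 0 of 9 is near that background. On the brightest probe set of each gene 6 members were higher and 3 lower, 1 of these (Hmox1) by next to nothing. All measured genes divided into 3004 above 0 and 3008 below. The members' median log2 ratio was 0.13 and their range was -0.12 to 0.32, whereas the median over all measured genes lay at 0 because of the centring. Of all measured genes, 71.5% had a ratio no farther from 0 than that of the farthest member, Nqo1. All 10 probe sets lay inside the 5th to 95th percentile of their neighbours in signal.

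**Figure D1:**
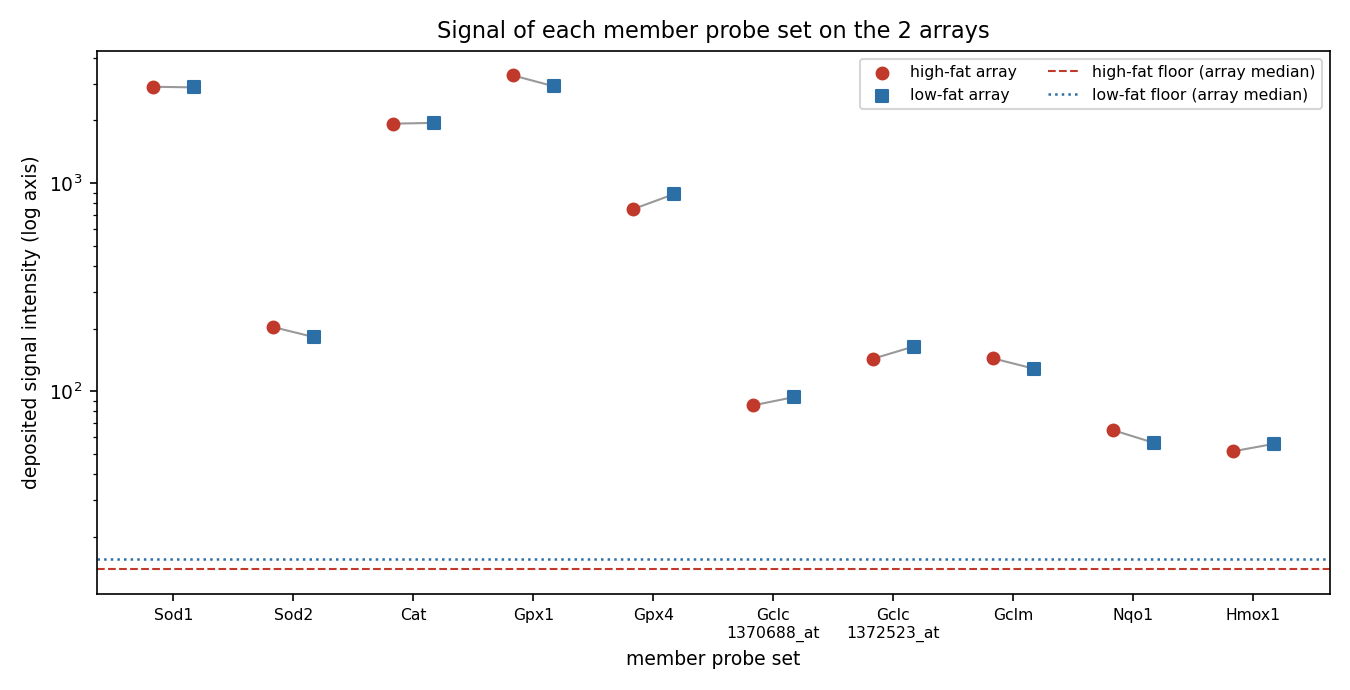
Deposited signal intensity (log axis) of the 10 member probe sets on the high-fat array (red circles, left) and the low-fat array (blue squares, right), with each array's floor as a horizontal line. Every pair sits above both floors and each line between the arrays is nearly flat; intensities of different probe sets are not comparable with each other.

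The superoxide dismutases differed little. Sod1, the copper-zinc enzyme of the cytosol, had a signal of 2901.1 on the high-fat array and 2882.2 on the low-fat array. The deposited signals were nearly equal, and centring put the log2 ratio at 0.13. Sod2, the manganese enzyme of the mitochondrial matrix, had 203.3 on the high-fat and 182.0 on the low-fat array, a centred log2 ratio of 0.28 or a 1.21-fold difference. Probe sets of similar signal to Sod2 spread between -0.40 and 0.43. The ratio of Sod2 exceeded that of Sod1 by 0.15 on the log2 scale, a difference that does not depend on centring. It did change with other scalings. With a loess correction for signal Sod2 was at 0.27 and Sod1 at 0.02, and with a pseudocount of 50 at 0.19 and 0.07.

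Catalase and Gpx1 both remove hydrogen peroxide, catalase mainly in peroxisomes and Gpx1, a selenoenzyme, mainly in the cytosol and mitochondria. Cat had a signal of 1929.2 on the high-fat and 1945.7 on the low-fat array. The centred log2 ratio was 0.10, and -0.01 before centring, so its sign depends on the scaling. Gpx1 had 3289.5 on the high-fat and 2917.7 on the low-fat array, a centred log2 ratio of 0.29 or 1.22-fold. Its neighbours in signal spread between -0.27 and 0.40, with a median of 0.06. Bright probe sets as a whole thus stood slightly above 0 after centring, and with a loess correction for signal Gpx1 was at 0.18 and Cat at 0.02.

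Gpx4, the selenoenzyme that reduces lipid hydroperoxides within membranes, lay on the other side. Its signal was 749.1 on the high-fat and 884.1 on the low-fat array, a centred log2 ratio of -0.12, or -0.24 before centring. It was the lowest of the 9 members and was below 0 under all 10 processing alternatives run, between -0.24 and -0.11. The ratios of Gpx1 and Gpx4 differed by 0.41 on the log2 scale. In the 696 genes that had another measured probe set, ratios from 2 probe sets of a single gene differed with an SD of 0.417, or a robust SD of 0.372, over genes of every brightness. Among the neighbours in signal the robust SD of a single ratio was 0.16 for Gpx1 and 0.182 for Gpx4, and a difference carries the spread of both.

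**Figure D2:**
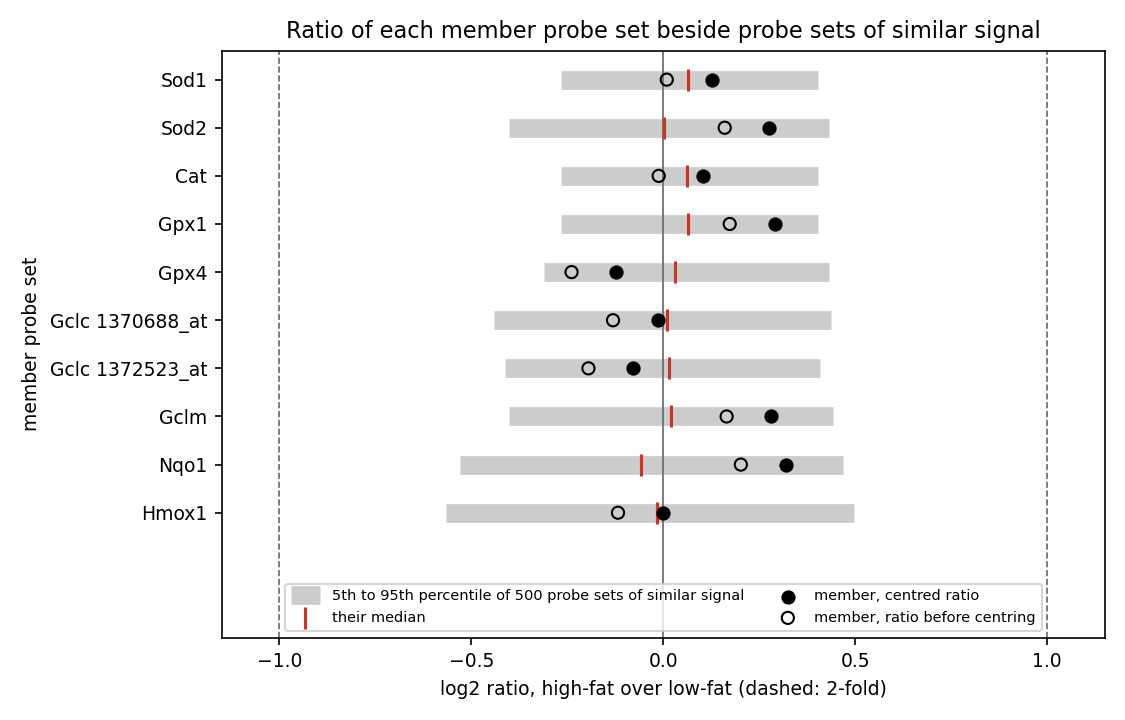
Log2 of the high-fat over the low-fat signal for each member probe set, centred (filled) and before centring (open), over grey bars that span the 5th to 95th percentile of the 500 probe sets nearest in signal, with their median as a red tick. All 10 filled points lie inside their bars, from -0.12 for Gpx4 to 0.32 for Nqo1, and none reaches the dashed 2-fold lines.

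Glutamate-cysteine ligase makes the rate-limiting step of glutathione synthesis, with Gclc encoding the catalytic and Gclm the modifier subunit. Gclc had signals of 143.2 on the high-fat and 163.9 on the low-fat array on its brighter probe set, a centred log2 ratio of -0.08. Its second probe set had 85.5 on the high-fat and 93.6 on the low-fat array, a ratio of -0.014. These ratios differed by 0.064 in size, and 15.4% of genes with a second probe set had a difference that small or smaller. Gclm had 143.8 on the high-fat and 128.3 on the low-fat array, a centred log2 ratio of 0.28 or 1.22-fold. The modifier subunit was thus higher and the catalytic subunit slightly lower, with 0.36 between their log2 ratios. Among the neighbours in signal of either probe set, a single ratio had a robust SD of 0.213. A difference between ratios carries the spread of both.

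Nqo1 and Hmox1 are the textbook readouts of Nrf2 activity, and they lay closer to the floor than the other members. Nqo1, a quinone reductase, had 65.0 on the high-fat and 56.5 on the low-fat array, a centred log2 ratio of 0.32 or 1.25-fold, the highest of the members. Its neighbours in signal spread between -0.53 and 0.47. Hmox1, the inducible heme oxygenase, had 51.4 on the high-fat and 55.8 on the low-fat array, a centred log2 ratio of -0.002. Probe sets of similar signal to Hmox1 spread between -0.57 and 0.50. Of the 4 members introduced above as Nrf2 targets, Nqo1 and Gclm were thus higher, Gclc was slightly lower and Hmox1 was near 0.

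The signs of some members depended on the scaling. Sod2, Gpx1, Gclm and Nqo1 were above 0 under each of the 10 alternatives, at 0.16 or more, and Gpx4 and the brighter Gclc probe set were below 0 under each. Cat, Hmox1 and the dimmer Gclc probe set took the other sign under at least 1 alternative, and Sod1 was between 0 and 0.14. Without centring 5 members were higher and 4 lower, with a median of 0.009. Such steadiness across settings concerns the arithmetic on the same 2 arrays and says nothing of the spread between animals.

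**Figure D3:**
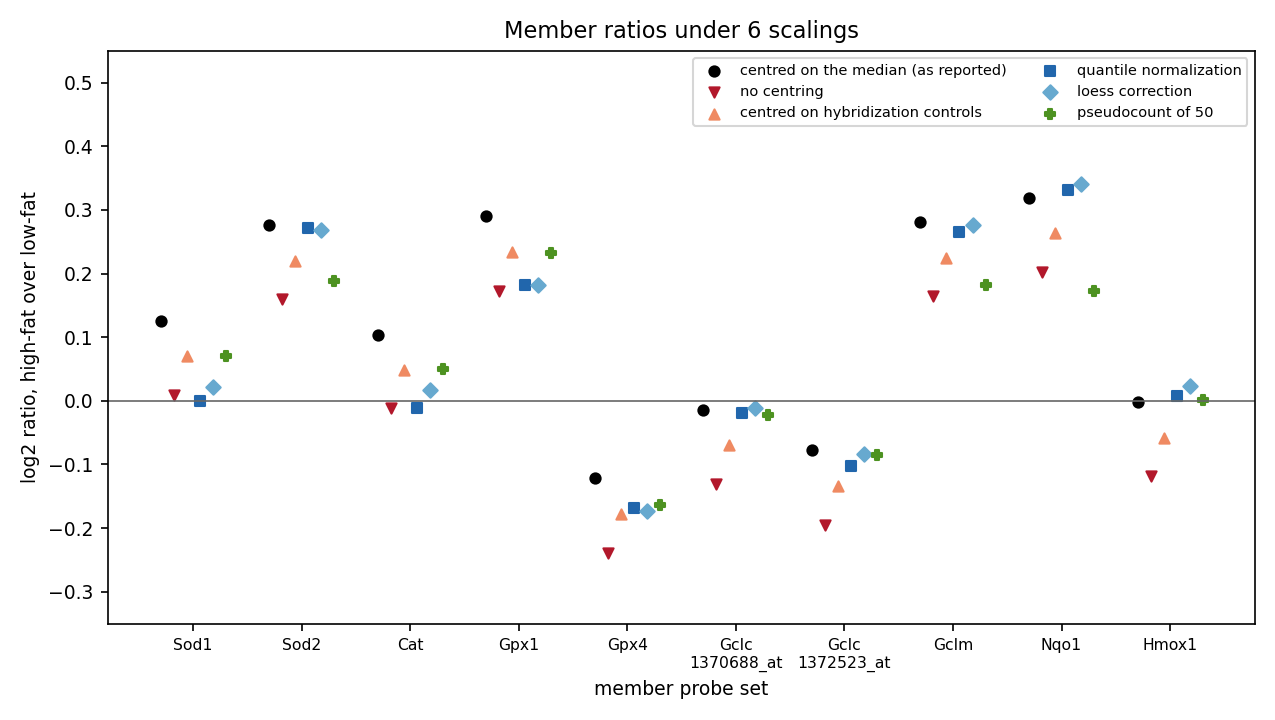
Log2 of the high-fat over the low-fat signal for each member probe set under 6 scalings, the reported one in black. Sod2, Gpx1, Gclm and Nqo1 stay above 0 and Gpx4 and the brighter Gclc probe set (the right one of that pair) below 0 in all 6, while Cat and Hmox1 cross 0.

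The genes around these enzymes were followed in 9 lists. Of 120 listed genes 90 were measured, of which 40 were higher and 50 lower. Their median was -0.05. Without centring 24 were higher and 66 lower. A 2-fold difference was reached by 2 of the 90, Me1 and Cbr1, both lower on the high-fat array, beside 0.848% of all measured genes higher and 0.865% lower by that much. With a pseudocount of 50 neither reached it, with Me1 at -0.56 and Cbr1 at -0.33, and with the floor at the 75th percentile neither was measured. With the median over probe sets Me1 was at -0.96.

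The list of other superoxide dismutases, glutathione peroxidases and partner proteins had 4 measured genes, 1 higher and 3 lower, or 0 and 4 without centring. Ccs and Park7 were among these 4 and belong to neither enzyme class. Gpx3, the secreted plasma enzyme, had 27.6 on the high-fat and 35.5 on the low-fat array, a ratio of -0.25. Ccs, the chaperone that loads copper into Sod1, was at -0.08, and Park7, a redox-sensitive protein also called DJ-1, at -0.05. The other glutathione peroxidases on the array, Gpx2, Gpx6, Gpx7 and Gpx8, were below the floor.

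The peroxiredoxin, thioredoxin and glutaredoxin list had 8 of 19 measured genes higher and 11 lower. Their ratios ran from -0.20 to 0.42 around a median of -0.03. Without centring 4 were higher and 15 lower and the median was -0.15, and with centring on the hybridization controls 6 were higher and 13 lower. Msra, which repairs oxidised methionine, was the highest, at 91.9 on the high-fat and 74.5 on the low-fat array (0.42). Neighbours in signal of the dimmer Gclc probe set, of similar brightness to Msra, spread between -0.44 and 0.44. Txnl1, a thioredoxin-like protein, was at 0.37, but its other measured probe set was at -0.14, so its direction is unsettled. Sesn1, a sestrin, was at -0.20. The remaining peroxiredoxins, chosen after their values were seen because Prdx1 itself has none, were all near 0. Prdx4 of the endoplasmic reticulum and Prdx5 were at 0.12 and 0.18, and Prdx2, Prdx3 and Prdx6 at -0.07, -0.06 and -0.02.

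Glutathione synthesis, recycling and breakdown had 4 of 10 measured genes higher and 6 lower, with a median of -0.04. The exception to these small values was Cth, cystathionine gamma-lyase, which makes cysteine for glutathione from cystathionine. Cth had 419.1 on the high-fat and 234.1 on the low-fat array, a centred ratio of 0.96 or 1.94-fold, just short of the 2-fold call. The ratio of Cth was 0.84 before centring and 0.79 with a pseudocount of 50. Chac1, which degrades glutathione, was at 0.20, with dim signals of 20.8 on the high-fat and 19.7 on the low-fat array. Glo1, which clears methylglyoxal with glutathione as cofactor, was at 0.19. Every other measured gene of this list was closer to 0 than these.

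NADPH supply had 2 of 7 measured genes higher and 5 lower. Its median was -0.15, and it held the lowest single ratio of the 9 lists. Me1, the cytosolic malic enzyme, had 25.4 on the high-fat and 66.1 on the low-fat array, a ratio of -1.26 or 2.40-fold. Its second probe set was at -0.66, with a high-fat signal of 12.9, below the floor. Pgd, of the pentose phosphate pathway, was at -0.54, with 69.5 on the high-fat and 109.4 on the low-fat array. H6pd, which makes NADPH inside the endoplasmic reticulum, went the other way at 0.53, with 303.0 on the high-fat and 227.6 on the low-fat array.

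The Nrf2 regulators were evenly split, 4 higher and 4 lower of 8 measured, and their median was -0.002. The even split depended on the centring. Without centring 2 were higher and 6 lower (median -0.12), and likewise with centring on the hybridization controls (median -0.06). For Keap1, Rbx1 and Sqstm1 the sign also depended on the probe set. Keap1 was at 0.05 on its brightest probe set and at -0.25 on another measured one. In the same order Rbx1 was at -0.02 and 0.25, and Sqstm1 at -0.21 and 0.18. With the median over probe sets the counts were again 4 and 4. Nfe2l2, which encodes Nrf2 itself, had 115.2 on the high-fat and 94.2 on the low-fat array, a ratio of 0.41. The dimmer Gclc probe set was of similar brightness, and its neighbours in signal spread between -0.44 and 0.44. Nfe2l1, a relative of Nfe2l2, was at 0.23, and at 0.05 on a second measured probe set. Mafg, a small Maf partner, was at -0.66 with a high-fat signal of 14.7, just above the floor. Message levels do not report Nrf2 activity, which is set mainly by the stability of the protein.

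Other Nrf2 target enzymes and transporters went both ways, 9 higher and 7 lower of 16 measured. Their median was 0.03. Without centring it was -0.09, and 3 genes were then higher and 13 lower. Aox1, aldehyde oxidase, had 383.7 on the high-fat and 211.4 on the low-fat array, a centred ratio of 0.98 or 1.97-fold. The ratio of Aox1 was 0.86 before centring and 0.79 with a pseudocount of 50. Cbr1, carbonyl reductase, had 16.7 on the high-fat and 37.6 on the low-fat array, a ratio of -1.05 or 2.08-fold, with its high-fat signal close to the floor. Akr7a3, an aldo-keto reductase that detoxifies aflatoxin aldehyde, was at -0.41.

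Heme breakdown had 2 measured genes beside Hmox1. Hmox2, the constitutive heme oxygenase, had 129.1 on the high-fat and 174.2 on the low-fat array, a ratio of -0.32. Blvra, which reduces biliverdin to bilirubin, was at 0.55, with dim signals of 29.6 on the high-fat and 22.0 on the low-fat array. Hmox1, near 0, lay between them.

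The selenoprotein supply list joined genes of this supply, which Gpx1 and Gpx4 both depend on, with other selenoproteins such as Selenof and Selenow. The list had 3 of 10 measured genes higher and 7 lower. Its median was -0.21. Without centring it was -0.33, and with a pseudocount of 50 it was -0.13. Selenof, an endoplasmic reticulum selenoprotein, had 259.4 on the high-fat and 362.7 on the low-fat array, a ratio of -0.37. Selenow, a small selenoprotein, was at -0.38, and Secisbp2, which reads the selenocysteine insertion element, at -0.49, both with signals below 40 on each array. Gpx4, at -0.12, was on the side of most of this list and Gpx1, at 0.29, on the other. A link of either to selenium supply was not tested.

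Enzymes that produce hydrogen peroxide or superoxide had 8 of 14 measured genes higher and 6 lower. Their median was 0.09, and -0.03 without centring. Acox3 and Acox2, peroxisomal acyl-CoA oxidases whose product catalase removes, were at 0.62 and 0.49. Acox2 had 325.7 on the high-fat and 251.7 on the low-fat array. Paox, a polyamine oxidase of peroxisomes, was at -0.74, with 39.4 on the high-fat and 71.2 on the low-fat array.

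**Figure D4:**
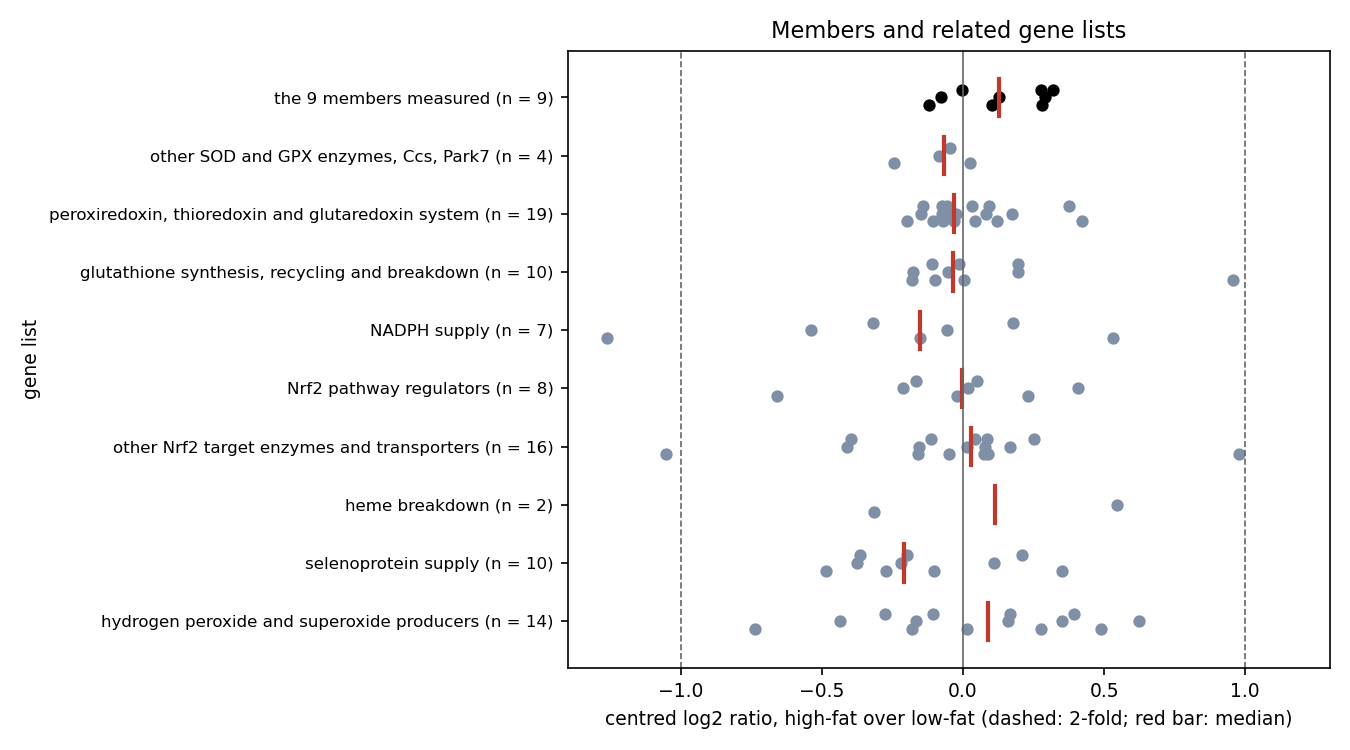
Centred log2 of the high-fat over the low-fat signal for the 9 measured members (black, top row) and for the measured genes of 9 related lists (grey), 1 point per gene on its brightest probe set, with list medians as red bars. The members span -0.12 to 0.32, and the points past the dashed 2-fold lines are Me1 and Cbr1, both on the lower side.

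The tissue label was checked against marker genes. All 6 hepatocyte markers were above the floor on both arrays, with a summed signal of 25408.7 on the high-fat and 25394.4 on the low-fat array. Marker sums are of deposited signals, before centring, while marker ratios are centred. The hepatocyte ratios were 0.03 to 0.27 with a median of 0.12, close to the members' median of 0.13. Of 7 Kupffer cell and macrophage markers on the array 7 were above the floor, with sums of 1179.8 on the high-fat and 1377.2 on the low-fat array and ratios of -0.31 to 0.18, beside Hmox1 at -0.002. Red cell markers, of interest because red cells carry much catalase and peroxiredoxin 2, had 2 of 4 above the floor and sums of 1404.2 on the high-fat and 1435.4 on the low-fat array. Endothelial markers summed to 259.4 on the high-fat and 304.6 on the low-fat array with 2 of 4 above both floors. Stellate cell markers summed to 294.6 on the high-fat and 402.4 on the low-fat array, with 3 of 7 above the high-fat and 4 of 7 above the low-fat floor. The 4 measured stellate markers were all lower, with centred ratios of -1.06 to -0.25. Bile duct markers summed to 47.8 on the high-fat and 52.8 on the low-fat array, with 1 of 4 above the floors. Of 4 neutrophil and lymphocyte markers, 1 was above the high-fat and 0 above the low-fat floor, with sums of 28.8 on the high-fat and 31.8 on the low-fat array. No marker was listed at 0, and the part of cell composition in the members' ratios was not tested.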

How the data were processed

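Liver RNA had been measured on 1 array per diet. The authors deposited a linear intensity for each probe set on each array; how they computed and scaled it is not given in the sources used here. Of 15923 probe sets, 57 controls were set aside, 12783 of the rest had 1 symbol, 312 had several and 2771 are unnamed here, and 4 with a 0 were left out of ratios. Symbols were updated through Entrez identifiers to GRCr8.

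Ratios were log2 of high-fat over low-fat with no pseudocount. A gene with several probe sets was represented by the brightest, and differences of 2-fold were counted. No test was possible. The alternatives were other centrings, floors and normalizations, a pseudocount of 50, and other choices among probe sets. Named are all members and, from each list, the 3 measured genes with the largest absolute centred ratios. Further genes given for context (Prdx2 to Prdx6, Keap1, Rbx1, Sqstm1, the glutathione peroxidases below the floor, and second probe sets) were chosen after their values were seen. Members and lists were chosen with earlier results of these data known. The procedure was tested on simulated data. Python 3.11.15, numpy 2.4.6, pandas 2.3.3 and statsmodels 0.14.6 were used. The number of arrays limits the precision.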

Additional observations from a re-analysis of the deposited data

How the results depend on the processing

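No member passed 2-fold under any of the 10 alternatives run. The members' median log2 ratio was between 0.008 with quantile normalization and 0.141 with the floor at the 25th percentile. The number of list genes that were higher, 40, was 24 without centring, and the number past 2-fold, 2, was 0 with the floor at the 75th percentile, 0 with a pseudocount of 50 and 1 with the median over probe sets. Over all measured genes, the counts past 2-fold, 51 higher and 52 lower, were 33 and 79 without centring, 244 and 318 with the floor at the 25th percentile, 15 and 10 with it at the 75th, and 4 and 4 with a pseudocount of 50; with signals set to the floor 34 were lower. A lower floor tests more genes, and a pseudocount shrinks every ratio. Leaving out a replicate was not possible. No paired analysis was possible because each diet has 1 array. The array signal over the floor limits the dim members, Nqo1 and Hmox1, more than the others.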
